A study of Salmo salar with 96 samples.

Results

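The 4 *klf15* paralogs of Atlantic salmon (*Salmo salar*), *klf15a*, *klf15b*, *klf15c* and *klf15d*, were read from 4 of the 220 gene probes of a custom nCounter panel, chosen as every probe whose symbol begins with KLF15. nCounter counts single RNA molecules through hybridised barcoded probes, without amplification. The 96 samples were 18 whole animals from early development and 78 tissue samples. The whole animals were 4 embryos at 186 degree days (°d), 4 embryos at 258 °d, 4 alevin (hatched individuals that do not yet feed) at 436 °d and 6 fry, all of the hatchery-kept Neva strain, with the yolk sac removed from embryos and alevin. Of the fry, 2 were taken at 1119 °d on normal diet, and at a second hatchery 2 were taken at 1320 °d on normal and 2 at 1320 °d on low-fat diet. Blood came from 4 Neva fry of 2212 °d, 2 on each diet. The other tissues came from 8 parr (the freshwater stage) of 3 years: hatchery-reared Neva fish 1 to 4, all immature, of which 1 and 2 were males and 3 and 4 females, and wild Inarijoki fish 5 to 8, all males, of which 5 and 6 were immature and 7 and 8 mature. The hatchery parr are labelled with normal diet, and the wild parr carry no diet label. No treatment or transgene was applied other than the diets. All 4 probes matched a RefSeq gene by accession: that of *klf15d* is annotated as klf15, and the other 3 carry only a locus name.

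KLF15 is a Krüppel-like zinc finger transcription factor that binds GC-rich DNA. In mammals it is known from liver, where glucocorticoids and fasting induce it and it drives genes of gluconeogenesis and amino acid breakdown, from heart and skeletal muscle, where it acts on lipid and branched-chain amino acid use, and from adipocyte differentiation, where it works beside the C/EBP factors and PPARγ. It was also described in mammals as a kidney-enriched factor and as a repressor of rhodopsin in the retina. The separate roles of the salmon copies are not known from the sources used here. Probes differ in how well they capture their targets, so counts are compared between samples for each paralog and never between paralogs, and where no specific probe could be designed for close paralogs (the study's methods say that this held for some, without naming them here) counts may be shared.

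Levels are the deposited normalized counts, scaled by 6 reference genes, given with the SD over samples. Among these genes the paper reports *prkar1aa* as rising in alevin and fry and *vdrab* as rising in fry. Scaling by the other 4 was tried as an alternative, and moved the panel median of the step from alevin to fry by 0.14. A level under 20 normalized counts was read as background. Averaged over 8 probes and scaled alike, the negative controls ran from 6.26 to 17.4 in the whole animals and from 3.38 to 69.8 in the tissues. Total counts per sample were 201761 to 480697 in the whole animals and 47598 to 949899 in the tissues. A cartridge is here the set of samples that share a number in the headers of the raw counts, a name the labels do not give. Muscle from hatchery fish 4 and liver from wild fish 5 needed a scaling factor above 3.0. Both are left out of the levels and tests, but count among the 96 samples where that number is given. Of the tissue markers, *rtn1* was highest in brain, *apoc1b* in liver, *fshr* and *lhr* in testis and *col1a1a* in fin, but *apoc1a* was highest in testis, *pparga* in pyloric caeca and both *myf5* paralogs in ovary. The 3 *six3* genes, listed for brain, were highest in eye, and the 4 *otx2* genes, listed for eye, were highest in other tissues. *six6b*, also listed for eye, was highest there, at 33.7. Of the other collagen genes listed for connective tissue, *col12a1a* and *col12a1c* were highest in fin, *col1a1b* in skin and *col12a1b* in adipose tissue. Every tissue is a mixture of cells, so fewer cells of a type and less RNA per cell cannot be told apart. Whole animals and blood samples are separate fish, whereas the other 74 tissue samples come from only 8 parr, so that samples of different tissues are not independent, and the 2 fin samples (adipose fin and tail fin) come from 1 fish.

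During early development the mean of *klf15a* fell from 186 °d embryos to alevin and was higher in fry, whereas *klf15d* was level in embryos and higher from alevin on. Embryos of 186 °d held 69.2 ± 6.97 (SD, n = 4) normalized counts of *klf15a* and those of 258 °d held 60.9 ± 3.60 (SD, n = 4). Alevin held 52.4 ± 2.67 (SD, n = 4), and fry 119 ± 32.5 (SD, n = 6). The successive steps down to alevin, of -0.19 and -0.21 on the log2 scale (adjusted p = 0.49 and 0.41, edgeR), did not pass. Every 186 °d embryo (59.15 to 74.89) exceeded every alevin, a pair of stages that was not tested. The 4 alevin had 50.6, 56.2, 52.4 and 50.5 normalized counts of *klf15a*, and the 6 fry had 99.7, 63.0, 135, 151, 127 and 139. Every fry exceeded every alevin. The rise from alevin to fry was 1.18 on the log2 scale (SE 0.19), with an adjusted p of 2.3e-05 in the quasi-likelihood test of edgeR, a 2.27-fold difference. In this step 1 of the 4 paralogs passed the test, against 62.9% of the 178 panel genes tested. The lowest fry, at 63.0 and 99.7, were the 2 of 1119 °d, read on the same cartridge as the alevin, and the 4 fry of 1320 °d, at 127 to 151, were read on another cartridge and reared at another site. With the samples of the shared cartridge alone the rise of *klf15a* was 0.64 (adjusted p = 0.0070), so that age, site, cartridge and header date of the older fry cannot be told apart for the rest of it.

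For *klf15d* the embryo levels were 124 ± 9.86 (SD, n = 4) at 186 °d and 129 ± 13.96 (SD, n = 4) at 258 °d. Alevin stood at 345 ± 127 (SD, n = 4), fry at 258 ± 63.5 (SD, n = 6). The 258 °d embryos had 137, 130.1, 140.2 and 109 normalized counts, and the alevin had 485, 415, 277 and 205. The lowest alevin lay above the highest embryo, but the alevin differed among themselves by more than the embryos did. The rise from 258 °d embryos to alevin was 1.43 on the log2 scale (SE 0.22, adjusted p = 6.6e-05), a 2.69-fold difference, and it was 1.43 also within the cartridge that held every stage (adjusted p = 0.00024). This was 1 of 4 paralogs to pass in this step, against 49.4% of the panel, and without the third 258 °d embryo *klf15b* passed too (0.71, adjusted p = 0.048). From alevin to fry *klf15d* differed by -0.42 (SE 0.20, adjusted p = 0.067), which did not pass with every sample, but did without alevin 3, alevin 4 or fry 2 (-0.52 to -0.60, adjusted p = 0.0077 to 0.043).

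Neither *klf15b* nor *klf15c* passed between successive stages in the edgeR test with every sample and the 6 reference genes. Stages further apart were not tested. The level of *klf15b* was 43.1 ± 8.92 (SD, n = 4), 33.8 ± 9.46 (SD, n = 4), 48.3 ± 7.52 (SD, n = 4) and 66.9 ± 21.6 (SD, n = 6) in the 4 stages in order. That of *klf15c* was 14.3 ± 2.01 (SD, n = 4), 16.0 ± 4.36 (SD, n = 4), 19.9 ± 8.06 (SD, n = 4) and 27.7 ± 4.70 (SD, n = 6), so that it reached the background limit of 20 only in fry and was tested through that stage. In alevin the negative controls averaged 15.5, and 2 of the 4 alevin had less *klf15c* than their own negative controls. From alevin to fry *klf15b* and *klf15c* differed by 0.47 each (SE 0.24 and 0.22, adjusted p = 0.097 and 0.078). With panel-wide TMM scaling in place of the 6 reference genes both passed, at 0.72 (adjusted p = 0.013) and 0.73 (adjusted p = 0.0073). With 4 reference genes both passed too, at 0.61 each (adjusted p = 0.033 and 0.029, edgeR). In limma *klf15c* passed (0.52, adjusted p = 0.034), and with the shared cartridge alone *klf15b* did (0.71, adjusted p = 0.028, edgeR). *klf15b* also passed without fry 3 (0.61) and *klf15c* without alevin 1 (0.78). Between the 2 embryo stages none of the 4 paralogs passed, with differences from -0.36 for *klf15b* to 0.17 for *klf15c*, against 32% of the panel. At an unadjusted p under 0.05 the panel count in that step was 71 of 178, none of them a *klf15* paralog.

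**Figure D1:**
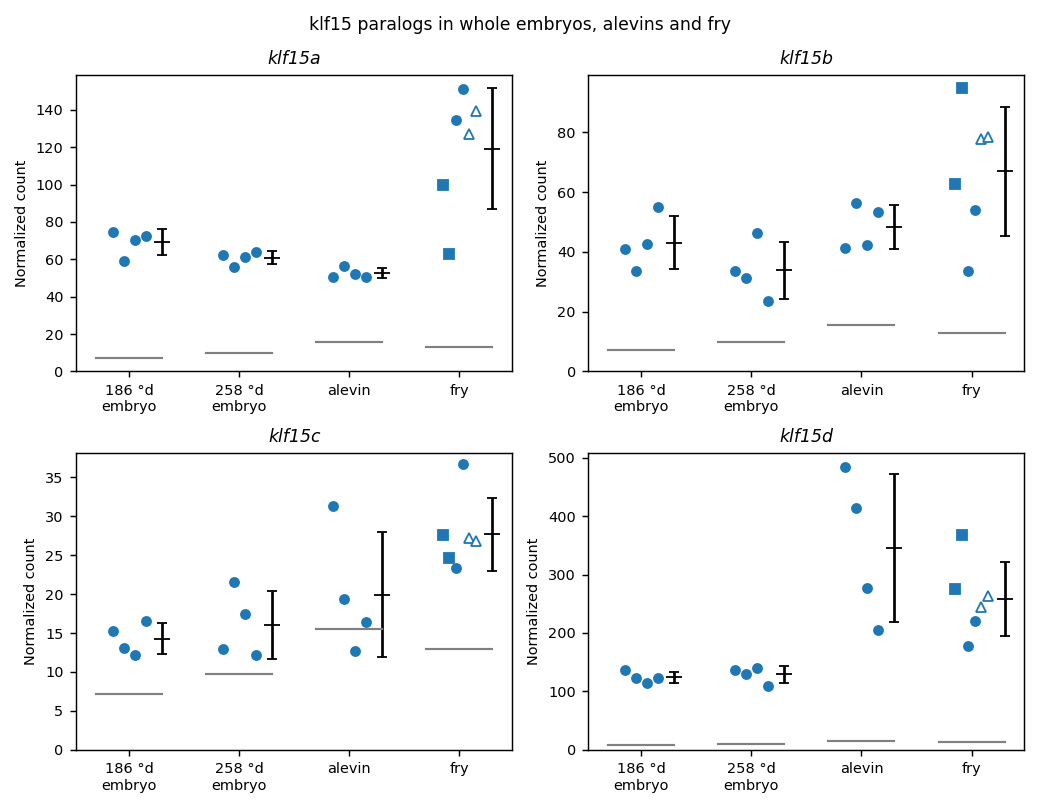
Normalized counts of the 4 *klf15* paralogs in whole 186 °d embryos, 258 °d embryos, alevin and fry, with 1 panel per paralog and a y axis that starts at 0. Circles are single animals, squares the fry of 1119 °d and open triangles the fry on low-fat diet, the black bars give the mean ± SD, and grey lines give the mean of the scaled negative controls. The fry lie above the alevin for *klf15a* and the alevin above the embryos for *klf15d*, while *klf15c* lies close to the negative controls.

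Around the *klf15* paralogs, a list of adipogenic and lipid genes (C/EBP, PPAR and apolipoprotein C1 genes, *aebp1*, leptin and the leptin receptors) was counted in the same fits. From 258 °d embryos to alevin, the step in which *klf15d* rose, 13 of the 16 list genes tested rose and 0 fell, with a median log2 difference of 0.76 against 0.19 for the panel, of which 88 of 178 passed, 73.9% of these higher. The largest rises were *apoc1b* (1.90, SE 0.52) and the C/EBPδ genes *cebpdb* (1.86, SE 0.18) and *cebpda* (1.45, SE 0.17). From alevin to fry, the step in which *klf15a* rose, 8 of the 16 rose and 3 fell, with a median of 0.25 against -0.30 for the panel, of which 112 of 178 passed, 28.6% of these higher, led by *apoc1b* (2.12, SE 0.49) and *apoc1a* (1.93, SE 0.25). The retinoid X receptors, the common partners of nuclear receptors, had 1 of 7 higher and 0 lower in the first of these steps, and 0 higher and 4 lower in the second.

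Diet was compared in few fish. In fry of 1320 °d *klf15b* was 33.5 and 54.1 on normal and 77.7 and 78.3 on low-fat diet. The groups did not overlap. How often panel genes separated such small groups was not counted, so no difference is read from it. The difference of 0.82 on the log2 scale (SE 0.31, unadjusted p = 0.018 and adjusted p = 0.13, edgeR) did not pass. The other 3 paralogs differed by -0.16 to 0.35, and 5.81% of the 172 panel genes tested passed. In the blood of fry only *klf15a* reached a group mean of 20 and was tested, with 202 and 43.4 normalized counts on normal and 53.2 and 98.9 on low-fat diet. These overlapped (log2 difference -0.68, SE 0.78, adjusted p = 0.91, edgeR), and 0% of the 100 genes tested passed there, with 3 at an unadjusted p under 0.05.

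The paralogs had unlike tissue patterns. *klf15a* had a mean above 20 in every tissue, with its highest pooled mean in eye, through the wild fish. *klf15b* was led by liver, testis and adipose tissue. *klf15d* was led by liver and muscle but lay at the negative controls in spleen and in 3 of 4 adipose samples. *klf15c* had its highest tissue mean in gill, at 51.4. The tissue means reached 20 in all 15 tissues for *klf15a*, in 12 for *klf15b*, in 11 for *klf15c* and in 12 for *klf15d*. In fin and pyloric caeca the negative controls themselves averaged 24.9 and 25.1, so that a mean of 20 there is no mark of detection. The fin mean of *klf15b*, counted among these, was 24.2 and lay below them. The highest tissue mean was 3.95 times the lowest for *klf15a*, 9.79 times for *klf15c*, 97.1 times for *klf15b* and 112 times for *klf15d*, and since the lowest means of the last 3 lay below the negative controls, their ratios depend on the background. In 1 fit, each tissue was set against the mean over the 14 others. Of 60 tests of a paralog in a tissue 30 passed, 17 higher and 13 lower, against 52.4% of the 3255 tests of the whole panel (25.9% higher and 26.5% lower). Several tissues came from the same fish. By tissue, 3 of 4 paralogs passed in adipose tissue (51.2% of the panel), blood (61.8%), gill (54.8%), muscle (65.4%), pyloric caeca (34.6%) and spleen (41%). In skin and testis 2 of 4 passed (48.4% and 46.1%), and in eye, fin, heart and ovary 1 of 4 (49.3%, 32.7%, 61.8% and 60.4%).

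**Figure D2:**
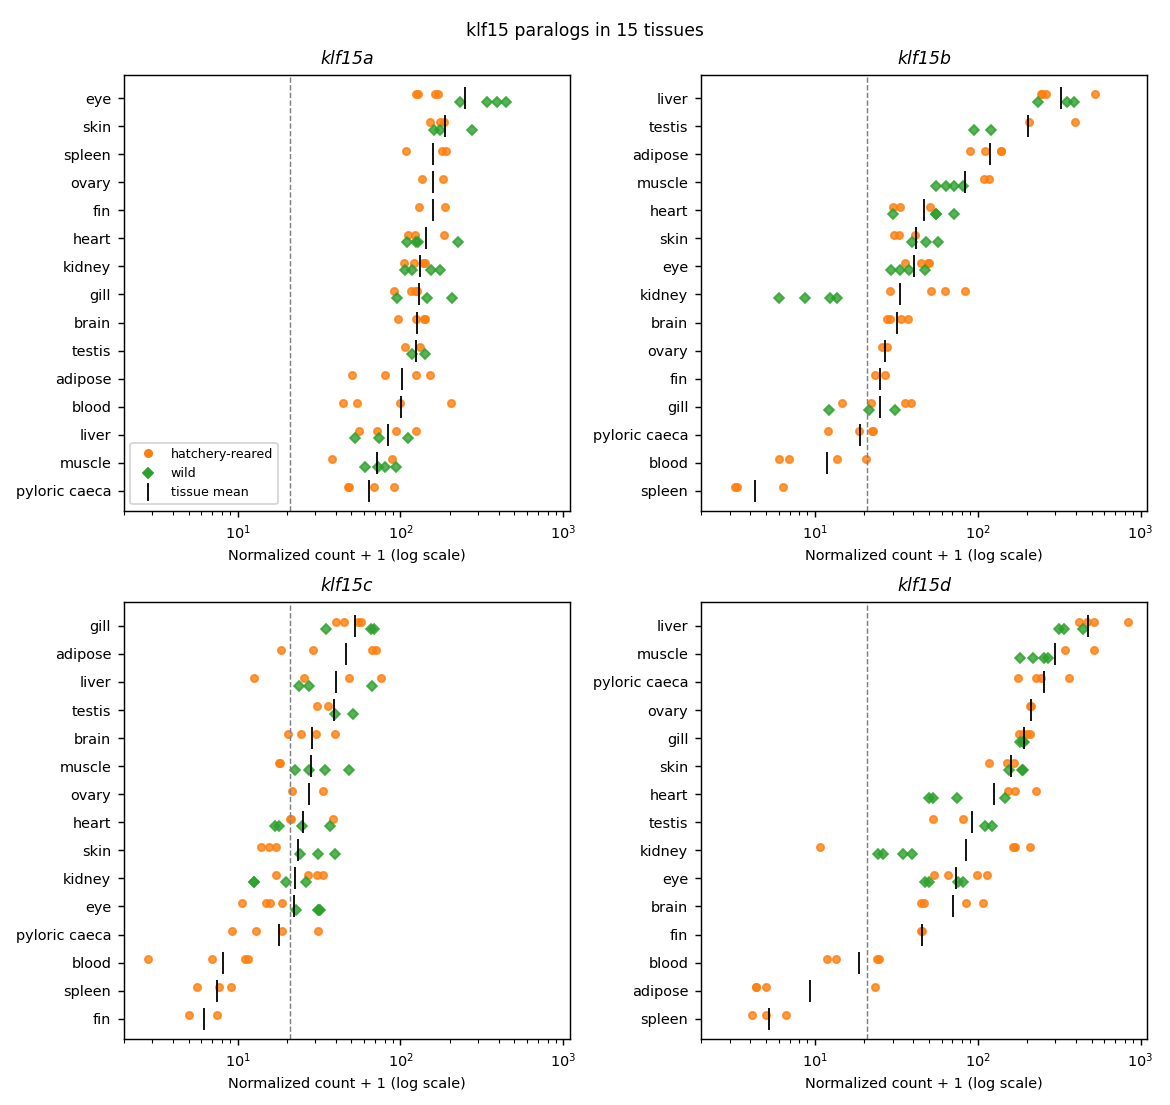
Normalized count + 1 of each *klf15* paralog in 15 tissues on a log axis, with tissues ordered by their mean (black tick). Orange circles are hatchery-reared fish, blood of fry and fins included, green diamonds are wild parr, and the dashed line marks the background limit of 20 normalized counts. Points of neighbouring tissues overlap nearly throughout, and *klf15d* in adipose tissue and spleen lies left of the line apart from 1 sample at 22.5.

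Pooled over habitats, *klf15a* had its highest mean in eye, at 248, with single eyes from 124 to 440.5. The order mixes tissues of both habitats with tissues of hatchery fish alone: hatchery eyes averaged 146, below hatchery skin (169.7), spleen, ovary and fin. Skin followed at 186 (151 to 274), then spleen, ovary and fin at 157 to 158. The lowest were liver at 82.5 (51.7 to 124), muscle at 71.2 (36.9 to 93.5) and pyloric caeca, the blind sacs of the salmon gut, at 62.9 (46.4 to 90.7). All 14 neighbouring pairs in this order overlapped. Against the other tissues *klf15a* was higher in eye (log2 difference 1.07, SE 0.17, adjusted p = 3.2e-07) and skin (0.63, SE 0.20) and lower in pyloric caeca (-1.05, SE 0.30), muscle (-0.85, SE 0.24) and liver (-0.63, SE 0.22). In pyloric caeca 3 of the 4 samples lay above their own negative controls. Among hatchery fish and fry alone the eye difference was 0.35 (adjusted p = 0.21). The liver call was lost under TMM scaling (adjusted p = 0.053), scaling by 4 reference genes (0.19) and without wild fish 6 (0.056), and the skin call under scaling by 4 reference genes (0.14). The muscle difference was -0.19 under TMM scaling (adjusted p = 0.57).

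*klf15b* was highest in liver, with 262, 525, 245 and 246 normalized counts in the hatchery fish and 390, 350.4 and 235 in wild fish 6, 7 and 8. The testes followed, with 396 and 206 in the immature hatchery males and 119 and 94.0 in the mature wild males. Adipose tissue had 109, 139, 88.1 and 138, and muscle averaged 82.0 (54.5 to 116). Heart came next at 45.7, with fin and gill further down at 24.2, and spleen was last at 3.31 (2.24 to 5.37). All 14 neighbouring pairs in this order overlapped, liver with testis included. The log2 difference from the other tissues was 3.31 (SE 0.21, adjusted p = 6.8e-23) in liver, 2.61 (SE 0.26) in testis, 1.76 (SE 0.28) in adipose tissue and 1.2 (SE 0.25) in muscle. It was lower in spleen (-3.66, SE 0.57), blood (-1.98, SE 0.44), pyloric caeca (-1.17, SE 0.42) and gill (-0.72, SE 0.29). In spleen all 3 samples, and in blood 3 of 4, lay below their own negative controls, and in pyloric caeca 2 of 4 did, with a mean of 18.03 against 25.1 for the negative controls, so these 3 differences are those of counts at background. The gill call was lost in 4 of 12 fits without 1 fish or blood sample, and that of pyloric caeca without hatchery fish 2 (-0.96, adjusted p = 0.10).

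For *klf15c* 55 of the 96 samples reached 20 and 75 lay above the mean of their own negative controls, counts that also depend on how well its probe captures. Its highest means were in gill at 51.4 (33.7 to 67.6), adipose tissue at 45.3 (17.4 to 69.9), liver at 39.0 (11.5 to 74.5) and testis at 38.3 (29.7 to 50.0), each overlapping with the next. It was higher than in the other tissues in gill (1.37, SE 0.22, adjusted p = 3.3e-07), adipose tissue (1.18, SE 0.28), liver (0.95, SE 0.24) and testis (0.91, SE 0.30). Fin (2 samples of 1 fish), spleen and blood were lower (-2.06, -1.80 and -1.63), with means of 5.26, 6.48 and 7.14 that lay below the negative controls. After subtraction of the negative controls the liver difference was 0.51 (adjusted p = 0.48, limma) and did not pass, and the testis call was lost under TMM scaling (0.51, adjusted p = 0.20) and without wild fish 7 (0.74, adjusted p = 0.081). In gill *klf15c* stood at 4.07 times the negative controls in hatchery and 4.47 times in wild fish.

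*klf15d* was highest in liver, with 515, 838, 416 and 471 normalized counts in the hatchery fish and 441, 316 and 340 in wild fish 6, 7 and 8. Muscle followed, with 342 and 516 in hatchery fish 1 and 3 and 182 to 269 in the wild fish, then pyloric caeca at 253 (177 to 361) and ovary at 210.7 (209 and 212). Gill, at 191 (178 to 208), varied little over both habitats. The difference from the other tissues was 2.77 (SE 0.24, adjusted p = 1.1e-16) in liver, 2.04 (SE 0.26) in muscle, 1.79 (SE 0.32) in pyloric caeca, 1.51 (SE 0.44) in ovary, 1.36 (SE 0.26) in gill, 1.09 (SE 0.28) in skin and 0.70 (SE 0.27) in heart. With the fish as a block and blood left out the ovary difference was 1.04 (adjusted p = 0.052) and under TMM scaling 0.46 (adjusted p = 0.43), and the heart call was lost in 3 of 12 fits without 1 fish or blood sample. It was lower in spleen (-4.51, SE 0.67), adipose tissue (-3.53, SE 0.53) and blood (-2.29, SE 0.48).

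In adipose tissue *klf15b* was higher and *klf15d* lower than in the other tissues. The 4 hatchery fish had 3.38, 3.33, 22.5 and 4.01 normalized counts of *klf15d*, against negative controls averaging 8.47. The exception for *klf15d*, fish 3, also held 1354 normalized counts of *spp2*, 237 of *mst1b* and 207 of *mst1a*, genes chosen here after their values were seen, against 9.02 to 35.3, 3.38 to 9.05 and 6.77 to 14.8 in the other 3. These 3 genes had their highest tissue mean in liver. Their part in the *klf15d* count of that sample was not tested. Without fish 3 the adipose difference of *klf15d* was -4.63. Of the adipogenic and lipid genes, among those with the largest differences here, *cebpaa* stood at 3467 to 8013 and *pparaa* at 1903 to 4495 in the 4 samples. *pparaa* also averaged 2206 in pyloric caeca. The genes listed as markers of adipose tissue were all highest elsewhere, *pparga* and *ppargb* in pyloric caeca, *ppargc* in ovary and *lepb1* in testis. *pparga* was at 0.476 to 2.41 in 3 of the 4 adipose samples.

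**Figure D3:**
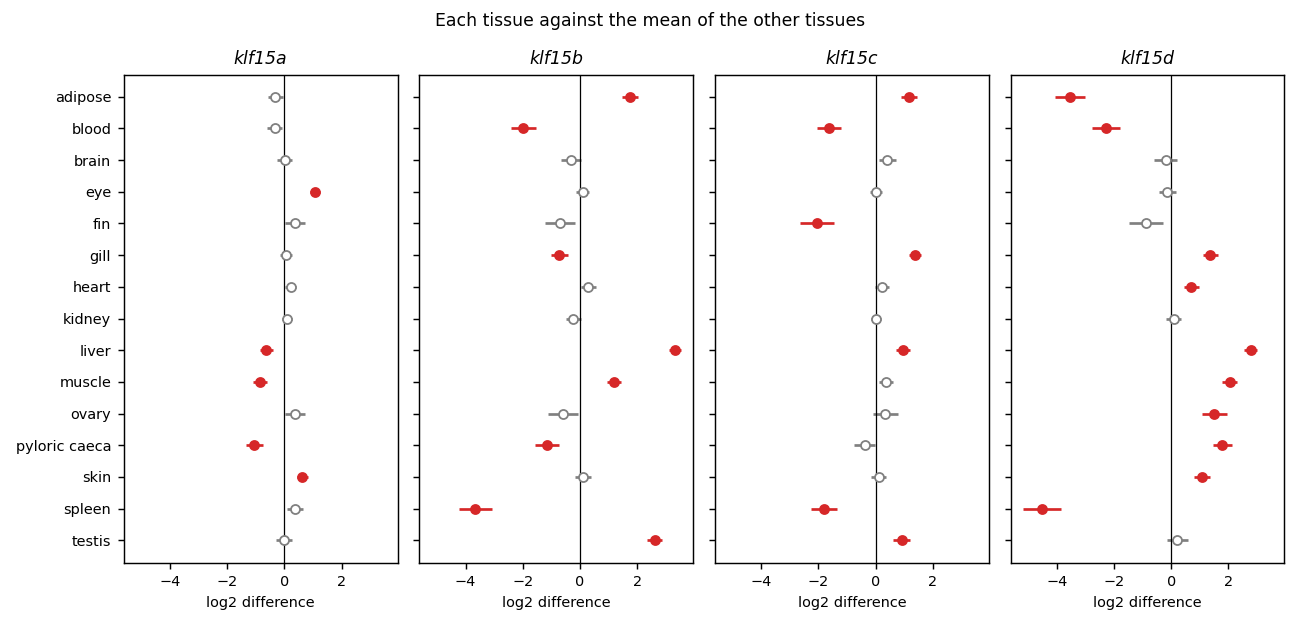
Log2 difference of each tissue from the mean of the other 14 tissues for each *klf15* paralog, from edgeR, with bars of 1 SE. Filled red points passed an adjusted p of 0.05 and open grey points did not. Liver is to the right for *klf15b* (3.31) and *klf15d* (2.77) and to the left for *klf15a* (-0.63), and adipose tissue is to the right for *klf15b* (1.76) and to the left for *klf15d* (-3.53).

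With the 6 reference genes and every sample, liver was the tissue in which all 4 paralogs passed, *klf15a* lower and the others higher, against 62.7% of the panel. As given above, the *klf15a* and *klf15c* calls in liver did not hold in every setting. There 14 of the 20 adipogenic and lipid genes were higher and 2 lower, with a median log2 difference of 1.52 against -0.20 for the panel, led by *apoc1b* (9.09), *apoc1a* (5.51), *pparga* (4.45) and *pparab* (3.50). Brain and kidney were the tissues in which no paralog passed, against 62.7% and 52.5% of the panel. At an unadjusted p under 0.05 none of the paralogs passed there either, against 147 of 217 panel genes in brain and 129 of 217 in kidney (edgeR). In kidney, whose mean pools habitats that differed for *klf15b* and *klf15d*, *klf15b* passed in limma (-0.75, adjusted p = 0.010) and *klf15d* among hatchery fish and fry alone (0.74, adjusted p = 0.041). TMM scaling moved the panel median in heart by 0.5. Under it *klf15a* (0.71, adjusted p = 0.0072), *klf15b* (0.79, adjusted p = 0.0031) and *klf15c* (0.73, adjusted p = 0.016, edgeR) were called higher in heart. In adipose tissue 7 of the 20 list genes were higher and 4 lower (51.2% of the panel passed), led by *pparab* (4.75) and *pparaa* (4.32), and in spleen 1 was higher and 8 lower (41% of the panel passed), so that the list passed about as often as the panel in both.

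The panel genes with the most similar pattern were found by Pearson's r of log2 tissue means over the 15 tissues, among 216 genes. For *klf15b* they were *apoc1b* (0.80), which encodes an apolipoprotein, the ghrelin receptor gene *ghsrc* (0.76) and *klf15c* (0.71). For *klf15c* they were *apoc1b* (0.78), *klf15b* (0.71) and *pparaa* (0.61). For *klf15d* they were *pparac* (0.70), which encodes a PPARα receptor, the glycolytic *gapdh* (0.67) and *myf5b* (0.63), a myogenic factor. For *klf15a* the highest values were lower: the corepressor *aesc* (0.63), *sox9d* (0.61) and the Hippo kinase *lats2a* (0.61). Between the paralogs, r was 0.71 for *klf15b* with *klf15c*, 0.49 for *klf15c* with *klf15d* and 0.47 for *klf15b* with *klf15d*, and -0.18 to -0.26 for *klf15a* with the other 3. These are descriptions over tissue means, which share fish, scaling and background, and *klf15c* is partly background in several tissues. *pparac* reached 20 in gill alone, at 23.6, and *ghsrc* was at 12.2 in fin, so both likenesses rest in part on background.

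Over 74 tissue samples, after removal of the mean of each tissue and habitat, r between the paralogs ran from -0.18 for *klf15a* with *klf15b* to 0.33 for *klf15a* with *klf15d*, a description of samples that share fish and scaling.

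In the gonads *klf15b* was higher in testis and *klf15d* was higher in ovary. The 4 testes had 396, 206, 119 and 94.0 normalized counts of *klf15b* and the 2 ovaries had 26.8 and 24.8, so that the groups stood apart. The difference was -2.98 on the log2 scale (SE 0.72, adjusted p = 0.0079, edgeR), or 7.89-fold lower in ovary. For *klf15d* the ovaries had 212 and 209 and the testes 52.3, 80.7, 122 and 111 (1.21, SE 0.41, adjusted p = 0.029, edgeR). With the testes of immature hatchery males alone the differences were -3.54 for *klf15b* and 1.66 for *klf15d*. Both calls were lost without either ovary, and that of *klf15d* also without the testis of hatchery fish 2 and under TMM scaling (0.63, adjusted p = 0.19). Passing the test was common here, at 76.5% of 187 genes. Of the 17 adipogenic and lipid genes tested, 6 were higher and 8 lower in ovary. The largest differences were those of the apolipoprotein genes *apoc1a* and *apoc1b*, lower in ovary (log2 differences -10.57 and -8.15, SE 0.97 and 1.31). Next came the leptin receptor gene *leprb*, higher in ovary (6.58, SE 0.34). Among the testes *klf15b* was higher in the 2 of immature hatchery males than in the 2 of mature wild males, but maturity and habitat cannot be told apart there and this was not tested.

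Wild and hatchery-reared parr were compared in 7 tissues. Wild fish were of another river, all males, in part mature, and were read on 3 cartridges that held no hatchery parr, which were read on 4 others. Wild and hatchery parr also shared no date in the headers, so habitat, origin, diet, cartridge and date cannot be told apart. Of 28 tests 6 passed, 3 higher and 3 lower in wild fish, against 40.9% of the panel tests (11.1% higher and 29.9% lower), and the ranges did not overlap in 8 of 28, against 46.6% of the panel.

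In eye *klf15a* was higher in wild fish. The hatchery eyes had 127, 162, 169.9 and 124 normalized counts and the wild eyes had 232, 339, 389.8 and 440.5, and the lowest wild eye exceeded the highest hatchery eye. The difference was 1.26 (SE 0.22, adjusted p = 0.00079, edgeR), or 2.39-fold, and in male parr alone it was 1.27 (adjusted p = 0.0041). *klf15c* rose in the same eyes from 14.03 ± 3.31 (SD, n = 4) to 28.5 ± 4.40 (SD, n = 4), a difference of 1.01 (SE 0.27, adjusted p = 0.0078), from a level that in hatchery eyes was 1.12 times the negative controls. In eye the mean of *klf15c* reached the background limit only in wild fish, and it was tested through that group. With immature parr alone the *klf15c* difference was 0.92 (adjusted p = 0.066). Of the panel 56.1% passed in eye. *klf15c* was higher in wild skin too, at 30.7 ± 7.86 (SD, n = 3) against 14.5 ± 1.56 (SD, n = 3), a difference of 1.10 (SE 0.29, adjusted p = 0.015), which was lost without wild fish 8. There the hatchery samples lay below their own negative controls, which averaged 22.8 against 9.75 in wild skin, and the part of background in that difference was not tested. In skin too *klf15c* reached the background limit only in wild fish and was tested through them. Of the panel 54.2% passed in skin. TMM scaling moved the panel median in skin by 0.57. Under it *klf15a* (0.83, adjusted p = 0.022), *klf15b* (1.05, adjusted p = 0.015) and *klf15d* (0.86, adjusted p = 0.015, edgeR) were also called higher in wild skin. *klf15b* passed there with negative controls subtracted too (1.74, adjusted p = 0.04, edgeR).

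In kidney *klf15b* and *klf15d* were lower in wild fish. For *klf15b* the hatchery kidneys had 61.6, 28.1, 51.0 and 83.0 normalized counts and the wild kidneys 12.6, 11.4, 7.68 and 5.00, with no overlap (-2.65, SE 0.43, adjusted p = 0.00081, edgeR). The wild kidneys were at 1.01 times their negative controls. For *klf15d* the hatchery kidneys had 163, 9.73, 169.6 and 207 and the wild kidneys 25.3, 33.6, 23.6 and 38.3 (-2.18, SE 0.68, adjusted p = 0.018). The kidney of hatchery fish 2 lay below every wild kidney. The same library had 9.73 normalized counts of *pparga* against 389 to 542 in the other hatchery kidneys, 15.1 of *pparaa* against 400 to 846 and 12.97 of *gapdh* against 2199 to 3737, and *klf15d* was the fourth lowest of 144 genes in it relative to the others. Wild kidneys were also low in *pparga*, at 2.50 to 12.1, and in *pparaa*, at 4.22 to 14.8, and had 63.1 to 204 of *gapdh*. Other genes set that library apart from the wild kidneys. It had 18.4 of *apoc1b* against 1504 to 5514 in wild kidneys, and 68263 of *mmp13a* against 831 to 1993. All these genes were named after their values were seen. What share the make-up of the kidney samples had in the *klf15d* difference was not tested. Without hatchery fish 2 the difference of *klf15d* was -2.56 (adjusted p = 2.5e-05), and with it the call was lost under TMM scaling (-1.64, adjusted p = 0.057) and limma (-1.54, adjusted p = 0.15). Of the panel 66% passed in kidney.

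In heart *klf15d* was lower in wild fish, with 169, 228 and 153 normalized counts in the hatchery hearts and 73.5, 49.5, 51.9 and 146 in the wild hearts (-1.19, SE 0.40, adjusted p = 0.048, edgeR). The highest wild heart lay just below the lowest hatchery heart, and 6 of the 8 fits without 1 fish lost the call. The wild hearts held 61889, 11354, 1971 and 834 normalized counts of *apoc1b*, highest in liver among the tissues, against 261, 162 and 33.1 in the hatchery hearts. *klf15d* too had its highest tissue mean in liver, at 477 against 124 in heart. Any link of *apoc1b* with the *klf15d* difference was not tested. Of the panel 34.3% passed in heart. In gill, liver and muscle no paralog passed, against 24.9%, 23.4% and 31.6% of the panel. At an unadjusted p under 0.05 the panel counts in these tissues were 90 of 201, 57 of 158 and 60 of 155 (edgeR). The paralog count at that level was 1 of 12, *klf15d* in muscle. There *klf15b*, *klf15c* and *klf15d* did not overlap between 2 hatchery and 4 wild fish, but adjusted p-values were 0.12 to 0.18 (edgeR). Over all 7 tissues 46.6% of the panel did not overlap, and the share for muscle alone is not given here. *klf15b* was at 112 ± 5.18 against 67.0 ± 11.1 (SD) and *klf15d* at 429 ± 122.9 against 230.4 ± 38.7 (SD). *klf15d* in gill was at 194 ± 12.7 (SD, n = 4) against 187 ± 5.99 (SD, n = 3), a log2 difference of -0.05 (SE 0.15). Under TMM scaling, which moved the panel median in gill by 0.70, *klf15d* (0.64, adjusted p = 0.048) and *klf15a* (1.07, adjusted p = 0.020) were called higher in wild gill. In wild muscle *klf15c* was called higher under TMM scaling (1.41, adjusted p = 0.039, edgeR). *klf15d* was called lower there in DESeq2 (-0.89, adjusted p = 0.037).

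**Figure D4:**
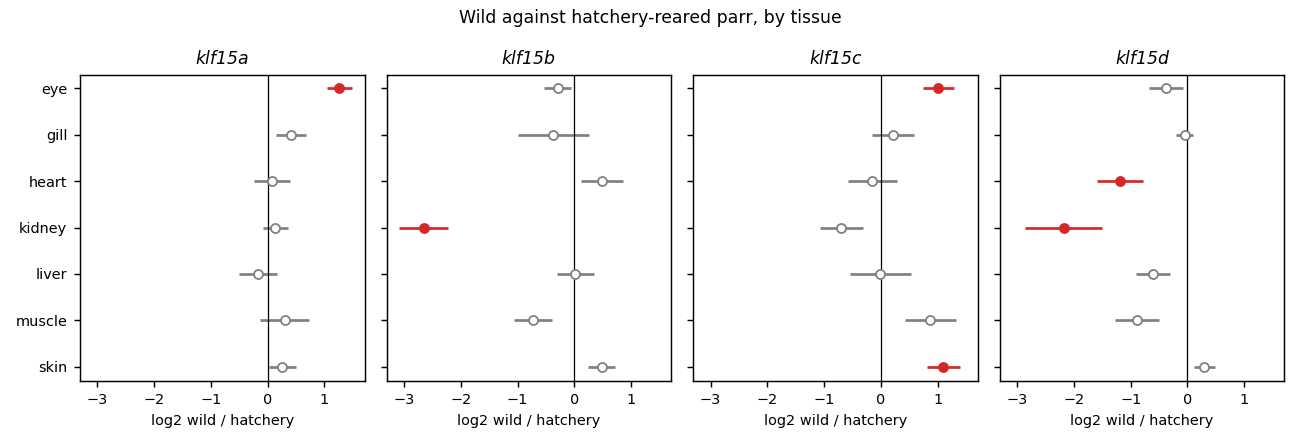
Log2 difference of wild from hatchery-reared parr for each *klf15* paralog in 7 tissues, from edgeR, with bars of 1 SE. Filled red points passed an adjusted p of 0.05. The filled points are eye for *klf15a* (1.26), kidney for *klf15b* (-2.65), eye (1.01) and skin (1.10) for *klf15c*, and heart (-1.19) and kidney (-2.18) for *klf15d*.

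Whether the wild against hatchery difference varied between tissues was tested as the interaction of tissue and habitat over the same 7 tissues. All 4 paralogs passed, *klf15b* most clearly (adjusted p = 1.9e-05), then *klf15d* (0.0082), *klf15c* (0.041) and *klf15a* (0.049, edgeR), against 71.6% of 215 panel genes. For *klf15b* the differences ran from -2.65 in kidney to 0.48 in heart and skin, and for *klf15d* from -2.18 in kidney to 0.30 in skin. In limma with the fish as a random block *klf15d* alone did not pass (adjusted p = 0.14). In limma without that block only 1 of the 4 paralogs passed, and *klf15d* did not (adjusted p = 0.19). With negative controls subtracted 2 calls were left in edgeR. Without 1 fish, *klf15a* lost the call in 6 of 8 fits, *klf15c* in 4 and *klf15d* in 2, so that 1 paralog passed without wild fish 7.

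Sex and maturity were compared with 1 value per fish, the mean of log2(normalized count + 1) over the tissues that every fish had. In the hatchery parr, over 7 tissues, the 2 females and 2 males differed by -0.33 for *klf15c* to 0.36 for *klf15a* and *klf15d* (adjusted p = 0.56 to 0.63, limma), and 0.535% of 187 genes passed. For *klf15a* the males stood at 6.27 and 6.75 and the females at 6.99 and 6.74, so that they overlapped. The other paralogs did not overlap. For *klf15b* the males stood at 5.67 and 5.6 and the females at 5.8 and 5.91. For *klf15c* the males were at 5.13 and 4.73 and the females at 4.57 and 4.63. For *klf15d* the males were at 6.72 and 6.13 and the females at 6.73 and 6.84. In the wild males, over 4 tissues, the mature and immature fish differed by -0.20 for *klf15c* to 0.41 for *klf15a* (adjusted p = 0.86 to 0.96, limma), and 0% of 161 genes passed, with 10 at an unadjusted p under 0.05. In the eye the 2 mature males had 389.8 and 440.5 normalized counts of *klf15a* and the 2 immature wild males 232 and 339, values that did not overlap and were not tested alone. How often panel genes separated 2 fish from 2 was not counted for sex or maturity, so no difference is read from it.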

How the data were processed

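The authors read 100 ng of RNA per sample and deposited raw counts of 220 genes, 8 negative and 6 positive control probes. They also deposited a normalized signal for 211 genes, made in nSolver from 6 reference genes (*vdraa*, *vdrab*, *rxrbaa*, *rps20*, *prkar1aa*, *ef1ac*) by their geometric mean, with no background subtracted. The headers of the raw counts hold a date and 8 different numbers, which were taken here as cartridges. The signal equalled raw count times factor within 0.009%. The deposited files name no genome build. Levels are the deposited signal. Tests used raw counts with that factor as offset. The 4 paralogs, gene lists and tests were chosen with earlier results of these data known.

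Counts were tested with edgeR 4.0.16 (glmQLFit, glmQLFTest), and fish means with limma 3.58.1, in R 4.3.3. Genes needed a mean of 20 normalized counts in 1 group. Adjusted p-values are Benjamini-Hochberg values over all genes tested, for tissues over all 15 contrasts, with a threshold of 0.05. Stages, tissues and ovary against testis were 1 fit each, and wild against hatchery parr 1 fit per tissue. The 2 samples of a factor above 3.0 were left out, as in the study. Named besides the paralogs are the genes of 2 lists, matched to the start of the symbols, and the 3 most similar genes per paralog. In 0 cases did a column lack a sample. The closest replicates differed by 4.54 times the counting noise. Replicate numbers did not pair whole animals (mean correlation of deviations -0.01 over 24 pairs), whereas tissues of the same fish are the same animal (0.11 over 293 pairs). Alternatives were TMM scaling, 4 reference genes, no filter, negative controls subtracted, DESeq2 1.42.0, limma on log2(count + 1), blocks of replicate number, fish or cartridge, subsets of fish, and each sample or fish left out. Figures were drawn with matplotlib 3.10.9.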

Additional observations from a re-analysis of the deposited data

Results flagged for a closer look

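Among 64 combinations of a paralog and a group of 4 to 6 samples, 5 had a sample farther from the others than Dixon's limit at 95%, where chance would give about 3.2. These were *klf15c* in fry 4, at 36.7 normalized counts against 23.3 to 27.7 in the other 5, *klf15d* in the adipose tissue of hatchery fish 3, at 22.5 against 3.33 to 4.01, *klf15d* in the kidney of hatchery fish 2, at 9.73 against 163 to 207, *klf15b* in the liver of hatchery fish 2, at 525 against 245 to 262, and *klf15c* in the eye of wild fish 5, at 21.9 against 30.3 to 31.2. In that liver *klf15d* was also the highest of its group, at 838 against 416 to 515, and *mmp13a*, named after its values were seen, stood at 599 against 20.1 to 58.4. That kidney had a mean correlation of 0.851 with the other hatchery kidneys over 137 genes, where the other 3 had 0.928 to 0.938, and of 0.785 with the wild kidneys.

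The difference between wild and hatchery parr varied between tissues for *klf15a* (adjusted p = 0.049), *klf15b* (adjusted p = 1.9e-05), *klf15c* (adjusted p = 0.041) and *klf15d* (adjusted p = 0.0082) in edgeR's test of the interaction, with habitat and cartridge not to be told apart. Without 1 fish, *klf15a* lost the call in 6 of 8 fits, *klf15c* in 4, *klf15d* in 2 and *klf15b* in 0.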

How the results depend on the processing

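Over 502 values of the 44 calls of a paralog under other settings, 457 kept direction and threshold, 45 kept direction but not the threshold, and 0 reversed. Of the fits without 1 sample or fish, only the lowest and the highest value of each call are among these. Settings in which a call could not be tested are left out. Interaction calls have no direction and were judged by the threshold alone. Of 186 counts of called paralogs, 21 moved by over 1.5 times. From alevin to fry the count of 1 became 3 with TMM scaling, 3 with 4 reference genes, 2 with limma and 2 with the cartridge that held every stage alone (a setting chosen after seeing the data), and 1 to 2 without 1 sample. From 258 °d embryos to alevin it was 1 to 2 without 1 sample. Between ovary and testis the 2 calls became 0 to 2 without 1 sample. Between wild and hatchery parr the 6 became 11 with TMM scaling and 3 with immature parr alone, which holds fewer fish, and 5 to 6 without 1 fish. In the interaction the 4 became 2 with negative controls subtracted, 1 with limma, and 1 to 4 without 1 fish, 1 being without wild fish 7. The cause of these was not tested where not named. The 30 tissue calls were 27 to 33 in the settings run, 27 with the fish as a replicate block and blood left out, a setting that drops the 3 blood calls, loses *klf15d* in ovary and gains *klf15a* in fin. With the replicate number as a block in the stages the counts stayed 0, 1 and 1, and the interaction count with the fish as a random block was 3. In the interaction that block was fitted in limma, which left 1 call without it. Under TMM scaling the panel median moved by -1.04 in ovary to 1.04 in blood against other tissues, by -0.01 to 0.70 between habitats and by -0.58 between gonads. The share of higher calls then rose from 13.3% to 55.8% in wild skin, from 14% to 88.2% in wild gill and from 28.9% to 47.4% in wild kidney, from 28.6% to 44% from alevin to fry and from 4.08% to 30.8% in wild muscle, and fell from 73.9% to 48.9% from 258 °d embryos to alevin. Against other tissues it moved most in blood (14.2% to 44.3%), gill (89.1% to 58.7%), fin (91.5% to 60%), heart (21.6% to 49.5%), muscle (26.8% to 52.6%) and ovary (73.3% to 49.3%). Relative to such shifts *klf15a* in muscle was -0.19 (adjusted p = 0.57) and *klf15d* in ovary 0.46 (adjusted p = 0.43). Panel calls moved by over 1.5 times in gill (50, with 17 under TMM scaling, 21 with 4 reference genes, 90 with DESeq2, 17 with limma and 29 with immature parr), muscle (49, with 13 under TMM, 29 with negative controls subtracted, 9 with males and 2 with immature parr), skin (83, with 52 under TMM and 27 with immature parr), heart (47, with 30 with males), kidney (97) and liver (37), with 58 and 7 with immature parr, the interaction (154, with 85 with negative controls subtracted), sex (1, with 4 with 4 reference genes), maturity (0, with 5 under TMM and 3 with 4 reference genes) and diet in blood (0, with 1 with DESeq2). For negative controls subtracted, the edgeR fit of the tissues gave no value, since some tissues were left at 0, and limma was used instead, as chosen after seeing the data. The mean of *klf15c* lay below the negative controls in blood, fin, pyloric caeca and spleen.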
